A study of Mus musculus with 4 samples.

Results

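The Groucho corepressor genes Aes, Tle1, Tle2, Tle3 and Tle4 were examined for E2A binding in L-DKO thymocytes. The members were the 5 genes themselves, out of 22367 protein-coding genes, together with every E2A peak whose midpoint lay in the body of a member or within 100 kb of it. This rule took 30 of the 17532 peaks called in CD4 and CD8 double-positive (DP) cells and 2 of the 1516 peaks called in invariant natural killer T (iNKT) cells. The group was chosen by the score of a DP peak in Aes, which is among the highest of the list, so peak numbers and scores at these genes are given as a description, without a test.

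E2A ChIP-Seq was performed to locate binding of the E protein E2A in the absence of its inhibitors Id2 and Id3, before and after selection of iNKT cells by CD1d. L-DKO mice carry Id2 f/f Id3 f/f LckCre+, in which Cre is driven by the T-lineage promoter of Lck. DP cells were sorted as CD1dTet- CD4+ CD8+ and iNKT cells as CD1dTet+ TCRβ+ from thymi of mice aged 3 to 5 weeks, and each sample pooled cells of 3 to 4 mice on a C57BL/6 or a mixed C57BL/6 and 129 background. The Id2 and Id3 deletion was shared by both cell types and no wild-type E2A library was analysed here, so nothing below measures the effect of that deletion. There was 1 E2A library and 1 input library for each of the 2 cell types, hence no replicate error and no test between DP and iNKT cells. A peak list holds no expression values, and the sorted cell types could not be checked against marker genes.

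Groucho proteins, named TLE in mammals, do not bind DNA themselves. They are recruited by DNA-binding partners, among them the TCF and LEF factors, the Runx factors and the Hes factors, and repress the genes to which they are brought. β-catenin, the effector of Wnt signaling, competes with them for TCF and LEF factors. Tle1 to Tle4 encode the full-length corepressors, with an amino-terminal oligomerization domain and carboxy-terminal WD40 repeats that bind many partners. Aes, the amino-terminal enhancer of split, encodes a short family member that lacks the WD40 repeats and can modulate the action of the long ones. The longest annotated coding sequence was 603 bp for Aes, 2340 bp for Tle1, 2301 bp for Tle2, 2346 bp for Tle3 and 2319 bp for Tle4.

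E proteins bind E-boxes, and the core CAGGTG, which reads CACCTG on the opposite strand, and the palindromic core CAGCTG were searched in each peak. The following stretches of 200 bases come from the mm9 assembly, are written 5′ to 3′ on the plus strand and have both E-box cores in capitals. Those at Aes are shown because they lie in the 4 highest peaks of the locus, beginning with the midpoint of the highest peak, in the first intron of Aes at chr10:81023502-81023701, which holds 1 core.
Aes first intron, DP peak midpoint: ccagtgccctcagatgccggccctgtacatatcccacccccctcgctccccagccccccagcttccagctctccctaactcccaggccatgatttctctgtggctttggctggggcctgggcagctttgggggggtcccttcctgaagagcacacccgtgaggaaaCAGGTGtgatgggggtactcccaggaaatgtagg
The same peak also covers the second exon of Aes at chr10:81023951-81024150, where a CAGCTG is followed by a CAGGTG that spans the 3′ end of that exon.
Aes second exon, same DP peak: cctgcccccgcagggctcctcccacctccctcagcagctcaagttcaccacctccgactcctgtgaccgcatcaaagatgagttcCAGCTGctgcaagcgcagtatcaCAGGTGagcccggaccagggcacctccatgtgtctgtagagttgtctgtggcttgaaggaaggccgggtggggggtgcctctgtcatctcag
The second highest peak lies between genes 32.6 kb upstream of Aes, and its midpoint window at chr10:80989496-80989695 holds 5 cores.
Aes upstream, intergenic DP peak midpoint: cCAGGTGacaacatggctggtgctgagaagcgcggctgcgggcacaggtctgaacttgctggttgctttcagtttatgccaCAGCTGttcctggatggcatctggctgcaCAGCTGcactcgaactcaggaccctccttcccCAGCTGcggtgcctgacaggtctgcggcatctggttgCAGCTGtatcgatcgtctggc
Another peak, 7.50 kb upstream of Aes, is shown where its cores are densest, with 2 cores in the window at chr10:81014546-81014745. Its midpoint window holds 1 core.
Aes upstream, nearer intergenic DP peak: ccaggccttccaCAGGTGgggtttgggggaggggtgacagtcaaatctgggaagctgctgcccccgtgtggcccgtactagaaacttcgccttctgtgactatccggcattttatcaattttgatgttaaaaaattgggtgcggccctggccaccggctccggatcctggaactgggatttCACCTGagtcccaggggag
The second peak in the Aes body is also shown where its cores are densest, with 3 cores at chr10:81028108-81028307, across the junction of an intron and the last exon. Its midpoint window holds 1 core.
Aes last intron and exon, DP peak: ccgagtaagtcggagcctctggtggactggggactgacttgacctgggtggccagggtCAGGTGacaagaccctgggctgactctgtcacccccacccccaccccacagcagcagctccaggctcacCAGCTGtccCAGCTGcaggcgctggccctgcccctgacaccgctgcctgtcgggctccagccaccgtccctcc
At Tle3 the stretches shown, with the most cores, come from the highest peak upstream of the gene apart from that over its start and from the highest peak downstream, upstream at chr9:61195980-61196179 with 4 cores and downstream at chr9:61357374-61357573 with 3 cores.
Tle3 upstream, intergenic DP peak: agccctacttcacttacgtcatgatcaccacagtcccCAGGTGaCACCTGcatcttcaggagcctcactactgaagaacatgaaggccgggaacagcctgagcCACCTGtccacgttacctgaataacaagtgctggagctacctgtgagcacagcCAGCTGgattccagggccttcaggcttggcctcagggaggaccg
Tle3 downstream, intergenic DP peak: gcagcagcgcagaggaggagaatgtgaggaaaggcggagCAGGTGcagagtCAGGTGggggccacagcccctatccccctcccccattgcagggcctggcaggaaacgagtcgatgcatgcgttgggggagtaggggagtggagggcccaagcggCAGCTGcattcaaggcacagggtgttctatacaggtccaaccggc
The peak over the Tle4 start site is shown at chr19:14672932-14673131, where its single CAGCTG lies, because it is the highest at that gene.
Tle4 upstream of the start site, DP peak: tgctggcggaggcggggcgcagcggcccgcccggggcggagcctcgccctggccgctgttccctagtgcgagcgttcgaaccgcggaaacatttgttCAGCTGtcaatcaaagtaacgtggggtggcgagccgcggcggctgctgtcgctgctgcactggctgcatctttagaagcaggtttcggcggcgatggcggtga
The only iNKT peaks at these genes are shown at chr4:71835276-71835475 in an intron of Tle1, with no core, and at chr19:14427185-14427384 downstream of Tle4, with 1 core.
Tle1 intron, iNKT peak midpoint: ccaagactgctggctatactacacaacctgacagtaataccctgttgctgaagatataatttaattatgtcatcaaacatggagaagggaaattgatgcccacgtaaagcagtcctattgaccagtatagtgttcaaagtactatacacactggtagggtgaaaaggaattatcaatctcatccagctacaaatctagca
Tle4 downstream, iNKT peak: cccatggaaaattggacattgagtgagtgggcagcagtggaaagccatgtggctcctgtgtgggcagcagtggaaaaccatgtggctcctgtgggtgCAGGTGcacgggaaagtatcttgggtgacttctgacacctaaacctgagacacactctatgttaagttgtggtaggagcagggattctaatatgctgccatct

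Most E2A peaks at the Groucho genes lay on chromosome 10, where Aes (ENSMUSG00000054452.8, chr10:81022239-81029107, plus strand) and Tle2 (ENSMUSG00000034771.9, chr10:81037306-81053590, plus strand) are neighbours separated by 8.20 kb. The Aes window held 17 DP peaks and no iNKT peak. The Tle2 window held 16 of these same DP peaks, so both genes share their peaks and are not independent of each other. The divergent family gene Tle6 (chr10:81053649-81063818, minus strand) has its 3′ end only 59 bp beyond that of Tle2 and was not among the members. The 17 peaks covered 26587 bp of a span of 172 kb, with a median spacing of 9.22 kb between midpoints.

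Within Aes itself was the peak at chr10:81022339-81024863, with a MACS score of 3225. The score is the authors' value, −log10 of the peak's p-value against its input times 10, and it orders peaks within a list up to 3100. At exactly 3100 a tie of 258 DP peaks marks where the scale saturates, and 26 DP peaks scored above it. The order among these 284 peaks is therefore not read as an order of binding. The Aes peak belonged to this saturated group, and its score, the largest number in the list, was also that of the peak at chr13:98593294-98594981, which lay 63.5 kb from the nearest protein-coding start site, that of Gm10260. The Aes peak was 2525 bp wide, started 100 bp inside the annotated start of the gene and reached through the first intron and the second exon into the second intron. It covered the start of a second annotated Aes transcript, relative to which the peak midpoint was at −0.322 kb. Its midpoint was 1.36 kb downstream of the first start site. A DP peak of at least 3100 in the gene body was found at 0.626% of all protein-coding genes and at 1 of the 5 Groucho genes, a count which the choice of Aes had fixed.

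**Figure D1:**
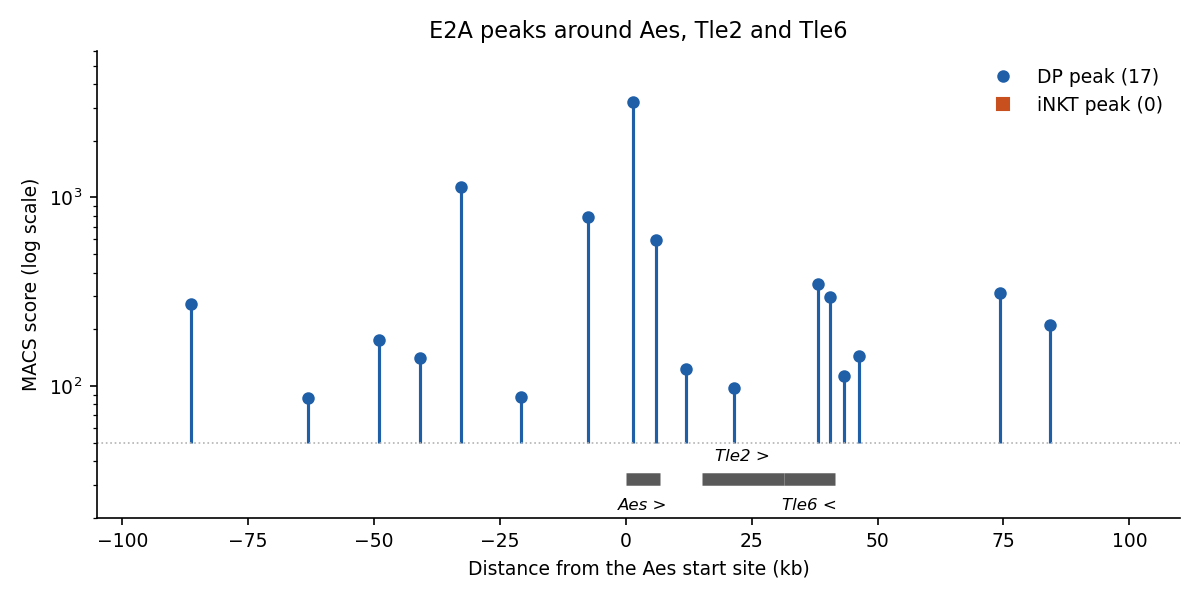
E2A peaks around Aes, Tle2 and Tle6, with the distance of each peak midpoint from the Aes start site in kb on the x axis and the MACS score on a log y axis. Blue points are the 17 DP peaks, grey bars are gene bodies with arrows for their direction, and the dotted line is the lowest score in the list, 50. The highest point, 3225, stands in Aes, 3 further peaks above 500 lie at −32.6, −7.50 and +6.10 kb, and no iNKT peak is present.

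The next peaks in order of score surrounded Aes. A peak 32.6 kb upstream, at chr10:80988905-80990285, scored 1130.1 and ranked 1435. It was intergenic and its nearest start site was that of Gna15, a G protein alpha subunit gene. A peak 7.50 kb upstream of Aes scored 785 and ranked 2177, and it was closer to the start of Gna11, a G protein alpha subunit gene transcribed away from Aes, than to that of Aes. The second peak in the Aes body, at chr10:81027223-81029448, scored 595, ranked 2840 and ran from the third intron over the following exons to past the annotated end of the gene. These were the 4 peaks above 500, and the other 13 peaks of the locus scored from 86.6 to 346.

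Tle2, a full-length corepressor gene, had lower peaks of its own. A single DP peak had its midpoint in the Tle2 body, at chr10:81043245-81044153, with a score of 97.65 and a rank of 11159. It was 6.39 kb downstream of the gene start, in an exon, and covered the start of an internal Tle2 transcript 0.12 kb from its midpoint. The peak nearest to the gene start was at chr10:81033268-81034956, 3.19 kb upstream, with a score of 123. The only peaks in the Tle2 window above 500 were the 4 at and upstream of Aes. The Tle2 body peak was thus among the lower peaks of the list, and 3248 protein-coding genes had a body peak at least as high.

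The remaining peaks of the locus were in or near other genes. Tle6 held 2 DP peaks in its body, with scores of 346 and 298, and the second covered its start site. This second peak, at chr10:81061325-81064402, was 3078 bp wide, against a list median of 984 bp, and held 8 CAGGTG cores. As many were held by 1.48% of all DP peaks, a share not adjusted for width. Further peaks with scores of 113 and 144 lay beyond the Tle6 start, the latter covering the start of BC025920. Gna15 held peaks of 175 and 142 in an intron, Gna11 held a peak of 87.6 in an intron, and Ankrd24 held peaks of 313 in an intron and 211 in an exon. At the upstream edge, a peak of 86.6 covered the start of Ncln and a peak of 273 covered the start of Celf5, which encodes an RNA-binding protein. The Celf5 peak was inside the window of Aes, at 86.4 kb, and outside that of Tle2, at 101 kb.

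Beyond the window of Aes, the next DP peak upstream was 109 kb away with a score of 87.0. Downstream of the locus no DP peak followed for 1.02 Mb, a stretch with 16 protein-coding gene starts, and 528 of the 17512 gaps between neighbouring DP peaks were at least as long. The nearest iNKT peaks were 645 kb upstream of Aes, with a score of 60.5, and 1392 kb downstream, with a score of 51.8. Of all protein-coding genes, 42.4% were at least as far from an iNKT peak as Aes.

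Tle3 (ENSMUSG00000032280.9, chr9:61220190-61266297, plus strand), a further full-length corepressor gene, had 10 DP peaks in its window and no iNKT peak. The widest, at chr9:61217720-61220711, covered the Tle3 start site with a score of 412, a rank of 3976 and a width of 2992 bp. Its midpoint was 0.975 kb upstream, in an exon of Gm10655, whose start it also covered. The highest peak of the window was far from the gene, at chr9:61357011-61358286, with a score of 1062 and a rank of 1539, 137 kb downstream of the start site and 91.4 kb past the gene end. Other peaks scored 397 at 24.3 kb upstream, 298 at 83.2 kb upstream and 429.9 at 54.9 kb downstream, and none of these stood far above the start site peak. The only peak with its midpoint inside the Tle3 body, in an intron 11.1 kb downstream of the start, was also the lowest of the 30, with a score of 53.3. The other 4 peaks scored from 58.2 to 128.

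The first DP peaks outside the limit of 100 kb at Tle3 were a peak of 605 at 136 kb upstream and a peak of 735 at 252 kb past the gene end. With 300 kb on each side the Tle3 window held 38 DP peaks and with 500 kb it held 53, of which the highest scored 3100. There was no iNKT peak in either, and the nearest was 2290 kb from the gene (11.6% of protein-coding genes were at least as far from an iNKT peak).

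Tle4 (ENSMUSG00000024642.9, chr19:14522562-14672473, minus strand), the longest of the 5 gene bodies, had 3 DP peaks of low score. The peak over the start site, at chr19:14672151-14673449, scored 131 and ranked 9214, its midpoint 0.327 kb upstream. A peak of 97.6 lay in an intron 9.50 kb downstream of the start. The third peak scored 71.9 and was just inside the limit, 97.7 kb upstream. A single iNKT peak, at chr19:14425804-14427558, with a score of 64.4 and a rank of 992 of 1516, lay 95.9 kb past the gene end and 246 kb from its start, also just inside the limit. No further DP peak was found for 1596 kb upstream and 1614 kb downstream of Tle4, and windows with 500 kb on each side held the same 3 DP peaks and 1 iNKT peak.

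Tle1 (ENSMUSG00000008305.11, chr4:71778176-71861953, minus strand) was the only member without a DP peak. Its nearest DP peaks were 1786 kb downstream, with a score of 104, and 2036 kb upstream, with a score of 191. The gap between them measured 3.90 Mb and held 19 protein-coding gene starts, and 87 of 17512 gaps were at least as long. Only 2.50% of protein-coding genes were at least as far from a DP peak, and the median distance over all genes was 38.8 kb. Tle1 was also the only member with an iNKT peak in its body, at chr4:71835114-71835636 in an intron 26.6 kb downstream of the start, with a score of 52.3 and a rank of 1389 of 1516. This peak was close to the lowest score in the list, 50, and only 523 bp wide. An iNKT peak in the window without a DP peak was found at 322 protein-coding genes, or 1.44%.

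**Figure D2:**
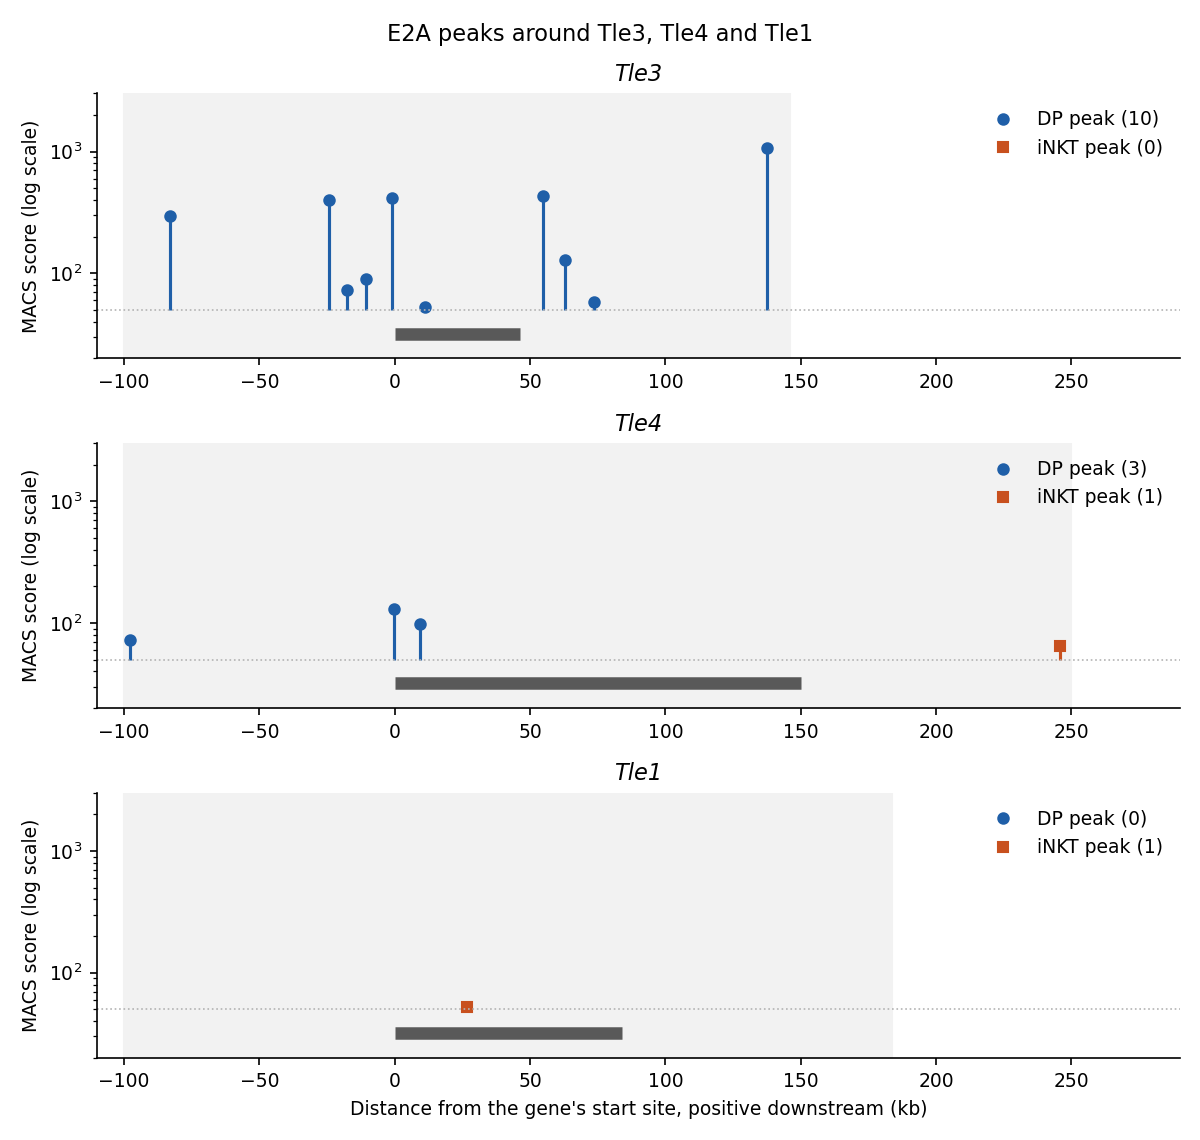
E2A peaks around Tle3, Tle4 and Tle1, with the distance of each peak midpoint from the start site of the gene in kb (positive downstream) on the x axis and the MACS score on a log y axis. Blue circles are DP peaks, orange squares are iNKT peaks, dark bars are gene bodies, shaded areas are the windows and dotted lines mark a score of 50. Tle3 has 10 DP peaks up to 1062, Tle4 has 3 DP peaks up to 131 and an iNKT peak near its far edge, and Tle1 has a single iNKT peak of 52.3.

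Set beside all protein-coding genes, the 5 members ranged from 0 to 17 DP peaks. The median over all genes was 2 DP peaks, with quartiles of 0 and 5 and a maximum of 176. At least as many DP peaks as at Aes were found at 1.14% of genes, as at Tle2 at 1.48%, as at Tle3 at 7.31% and as at Tle4 at 40.1%, while 35.0% of genes shared the count of 0 with Tle1. Because windows of long genes are longer, the numbers were also divided by window length. This gave 8.22 DP peaks per 100 kb at Aes, 7.40 at Tle2, 4.06 at Tle3 and 0.857 at Tle4, against a median of 0.597 over all genes, and kept the order of the members. With 300 kb on each side the order of Aes and Tle3 turned, with 30 DP peaks at Aes and 38 at Tle3. Within the windows of 100 kb, peaks were also counted only if the nearest protein-coding start site was the member's own. This left 2 DP peaks at Aes, 2 at Tle2, 5 at Tle3 and 3 at Tle4, so the order was not kept.

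**Figure D3:**
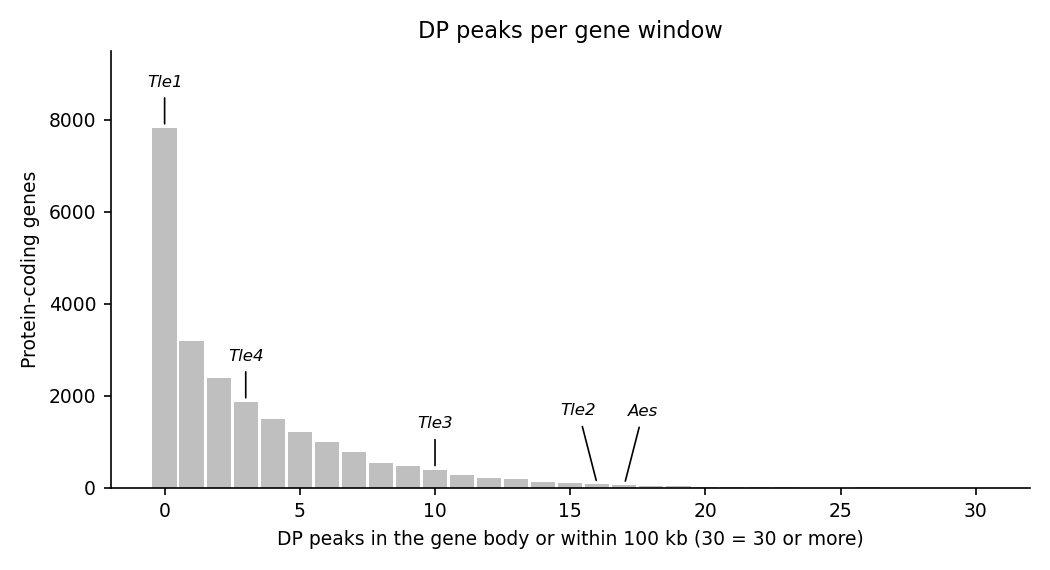
Number of protein-coding genes (y axis) by the number of DP peaks in the gene body or within 100 kb (x axis, the last bar holding 30 or more). The members are marked by name: Tle1 stands at 0 with 35.0% of genes, Tle4 at 3, Tle3 at 10, and Tle2 and Aes at 16 and 17 in the right tail.

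A DP peak in the body or within 100 kb was present at 65.0% of all protein-coding genes and at 4 of the 5 members. A DP peak with its midpoint in the body was present at 20.4% of genes and at 4 of the 5. The annotated gene start was covered by a DP peak at 9.35% of genes and at 2 members, Tle3 and Tle4. When the starts of all annotated transcripts were counted, the share was 12.0% of genes, and Aes and Tle2 joined these, for 4 members. An iNKT peak covered the gene start at 0.353% of genes and at no member. For iNKT peaks the share of genes with a peak in the window was 16.9% and the members were 2 of 5, and with a peak in the body it was 3.00% and 1 of 5. Counts over 5 genes, of which Aes was chosen for its peak and Tle2 shares its window, are too few to set the family apart from this background.

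The scores of the 30 DP peaks ranged from 53.3 to 3225. Their median was 159, with quartiles of 97.6 and 384, and the median of the list was 141. At or above the list median were 17 peaks and below it were 13. Over the peaks of each window, the median score was 211 for Aes, 193 for Tle2, 213 for Tle3 and 97.6 for Tle4. Only 3 of the 30 peaks scored 1000 or more, in the Aes intron, upstream of Aes and downstream of Tle3. By place, 15 of the midpoints were intergenic, 9 were in introns and 6 in exons. The nearest protein-coding start site was that of a member for 12 peaks and that of another gene for 18, and 10 midpoints lay in the body of another gene.

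**Figure D4:**
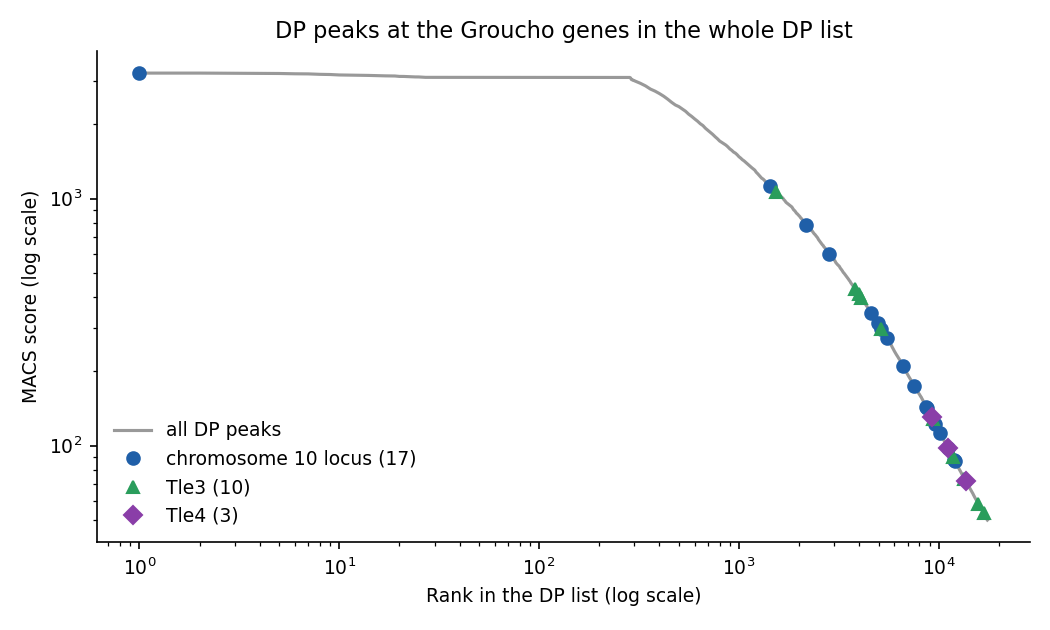
MACS score (log y axis) against rank in the DP list (log x axis). The grey line is all 17532 DP peaks, blue circles are the 17 peaks of the chromosome 10 locus, green triangles the 10 of Tle3 and purple diamonds the 3 of Tle4. The Aes peak stands on the flat top of the curve, where scores of 3100 or more are saturated and ranks carry no order, and every other member peak has a rank of 1435 or lower down the list.

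None of the 30 DP peaks overlapped an iNKT peak and neither of the 2 iNKT peaks touched a DP peak, 1 shared bp being enough. Over the whole lists, the share with an overlap was 5.99% for DP peaks and 69.3% for iNKT peaks. A count of 0 in 30 allows a share of up to 10.0%, which includes the share over the list, so a lower overlap at the Groucho genes was not detectable. The share depended on the DP score. It was 1.22% for DP peaks that scored from 50 to 100, 3.58% from 100 to 500 and 12.1% from 500 to 1500, and 167 of 284 peaks of 3100 or more overlapped an iNKT peak (58.8%, 95% Wilson interval 53.0% to 64.4%). Among DP peaks at least as wide as that in Aes, 161 of 533 overlapped an iNKT peak (30.2%). The Aes peak was among those of 3100 or more that did not, whereas the chromosome 13 peak of the same score did. The depth of the iNKT library is unknown because the lists give no read counts, and its part in the number of iNKT peaks was not tested. Absence from the iNKT list means that no peak was called there, not that E2A was absent.

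The E-box content of the member peaks was near that of the list. In 200 bp at the midpoint, CAGGTG was present in 10 of 30 peaks (33.3%, 95% Wilson interval 19.2% to 51.2%), against 43.9% of all DP peaks. In flanks 2 kb away, the shares were 11.7% for the member peaks and 15.5% for all. CAGCTG was present at the midpoint of 7 peaks (23.3%, interval 11.8% to 40.9%) against 29.0% of all. Over the whole peak, 25 of 30 held CAGGTG (83.3%, against 79.0% of all). At least 1 of both cores was present at the midpoint of 16 of 30 (53.3%, against 60.8% of all). The member peaks were wider, with a median of 1247 bp against 984 bp, and held 1.37 CAGGTG per kb against 1.62 per kb over the list. All these intervals cover counting error only.

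The highest peaks differed in how their cores were arranged. The Aes peak held 3 CAGGTG, at 70, 461 and 1045 bp downstream of its midpoint, and 2 CAGCTG, at −384 and 438 bp. The peak 32.6 kb upstream of Aes held 4 CAGCTG between −15 and 83 bp of its midpoint and a CAGGTG on each side of them, at −95 and 106 bp. In the peak 137 kb downstream of the Tle3 start, 2 CAGGTG lay at −232 and −220 bp and a CAGCTG at −116 bp, so that its midpoint window had none. The peak over the Tle4 start held no CAGGTG and a single CAGCTG, 232 bp from its midpoint, with a TCAAAG at 242 bp, visible in the printed stretch. Of the iNKT peaks, the one in Tle1 held neither core and the one beyond Tle4 held a single CAGGTG far from its midpoint.

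**Figure D5:**
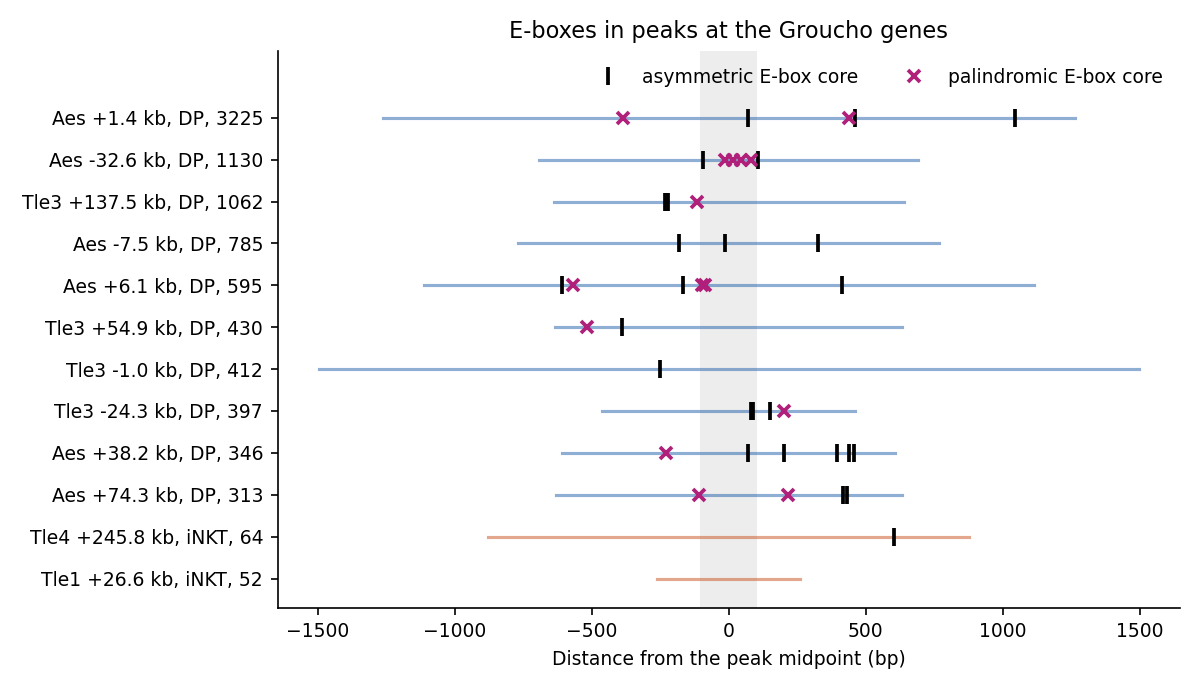
E-box cores in the 10 highest DP peaks and both iNKT peaks at the Groucho genes, with distance from the peak midpoint in bp on the x axis and 1 peak per row, named by gene, distance from its start site, list and score. Lines span the peaks, black ticks are CAGGTG on either strand, purple crosses are CAGCTG and the shaded band is the midpoint window of 200 bp. The peak at −32.6 kb from Aes has its 6 cores packed around the midpoint, while those in Aes spread over the peak and the Tle1 iNKT peak has none.

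Cores bound by factors that recruit Groucho proteins were searched in the same way on both strands, ACCACA for Runx factors and TCAAAG for TCF and LEF factors. At the midpoint, ACCACA was present in 4 of 30 peaks (13.3%, interval 5.31% to 29.7%, against 23.8% of all DP peaks) and TCAAAG in 3 (10.0%, interval 3.46% to 25.6%, against 17.4%). Over the whole peak, 19 of the 30 held ACCACA (63.3%, against 63.5% of all) and 15 held TCAAAG (50%, against 55.6%). The Aes peak held 2 ACCACA and 3 TCAAAG. A match of letters is no evidence that the factor binds there.

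The list median was 48.7% GC, with an observed to expected CpG ratio of 0.236. At the Aes peak the values were 61.3% and 0.328, at the peak over the Tle3 start the CpG ratio was 0.753, and at the peak over the Tle4 start, of 57.7% GC, it was 1.05. The sequence of the peaks was largely unique. For all 30 DP peaks and both iNKT peaks, words of 31 bases had a median of 1 copy in the assembly, and the share of words with 1 copy was lowest, 82.8%, in the peak at chr10:81065043-81066273.

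The genes of the Groucho pathway outside the members were taken as a list of 20 and were counted by the same rules. These were Tle6 and 19 genes for DNA-binding partners, β-catenin (Ctnnb1) and deacetylases. A DP peak in the window was present at 17 of the 20, against 65.0% of all genes, and a DP peak in the body at 13, against 20.4%. Among the DNA-binding partners, Tcf7, the TCF factor of T cells, had the highest body peak, 2079, followed by Runx1 with 1790.1 and Runx2 with 1204. Lef1, the related LEF factor, had a body peak of 518, Tcf7l2 of 420.1 and Tcf7l1 of 73.6. Runx3, which with Groucho proteins acts in silencing of Cd4, had a body peak of 173. Among the Hes and Hey genes, the body peaks scored 199 at Heyl, 154 at Hes1, 148 at Hes6 and 67.9 at Hes5. Prdm1 had a body peak of 175. No DP peak was present in the windows of Hey1, Pax5 and Hdac2. An iNKT peak was in the window of 4 of the 20, Tcf7, Hhex, Ctnnb1 and Hdac1, against 16.9% of all genes, and in the body of none, against 3.00%. A body peak of 3100 or more, found at 140 protein-coding genes, Aes among them, was present at none of these 20.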

How the data were processed

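E2A ChIP-Seq was analysed from 2 peak lists, 1 for L-DKO DP cells and 1 for L-DKO iNKT cells. According to the methods of the study and the submitters' processing notes, Bowtie 1.1.2 was used by the authors for alignment to mm9, with reads retained if they had 1 best position, and MACS 1.4.2 for peak calling with its defaults. The deposited values are peak positions and, per peak, a MACS score, which is −log10 of the p-value times 10. The lowest score was 50, a p-value of 1e-05. Reads, inputs and coverage are not analysed here, so depth is unknown and scores were used within a list only. Keeping reads with 1 best position under-represents repeated sequence.

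Protein-coding genes came from GENCODE M1 on NCBIM37, which is mm9. A peak belonged to a gene when its midpoint lay in the gene body or within 100 kb, and lists were compared with an overlap of at least 1 bp. Cores of motifs were counted on either strand within 200 bp centred on the midpoint, in flanks 2 kb away and in whole peaks. Copy number was the median number of times the 31-base words of a peak occur in the assembly. Alternatives were windows of 30 and 10 kb, assignment by nearest start site, minimum scores of 100 and 200, an overlap of 50% and other motif rules. On simulated data the functions returned the known answers exactly in 5 of 5 checks. Python 3.11.15, numpy 2.4.6, pandas 2.3.3, scipy 1.17.1 and numba 0.67.0 were used. The members, the pathway list and the rules were chosen with earlier results of these data known. The genes named are the members, genes whose body holds a member peak or whose start lies nearest to a highest or shared one, and the pathway list. Gm10260 and neighbours named only for a covered start were named after their values were seen.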

Additional observations from a re-analysis of the deposited data

How the results depend on the processing

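Of 31 alternative values for 6 results, 18 stayed within 1.5 times the value reported, or within its interval for the motif share, and 13 moved. The 30 DP peaks became 12 with windows of 10 kb, 14 with a minimum score of 200 and 12 when peaks were given to the nearest start site. The 2 iNKT peaks, and the 2 genes that have them, became 1 with windows of 30 kb, 1 with windows of 10 kb, and 0 with a minimum score of 100 or 200. The share of DP peaks with CAGGTG, 33.3% at the midpoint, was 83.3% over whole peaks and 53.3% when either core counted. No DP peak overlapped an iNKT peak under any alternative. Each alternative only took fewer of the same peaks or asked for a larger overlap, so this count of 0 could not change. Its values are among the 18 that stayed and carry no weight as a check. A DP peak was present at 4 members under each alternative except a minimum score of 200, which left 3. No paired analysis was possible because each cell type had 1 E2A library, and leaving out a replicate was not possible for the same reason. Both iNKT peaks at these genes scored below 100. The depth of the libraries is not known, and its part in these counts was not tested.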
